A study of Mus musculus with 12 samples.

Results

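The interaction of Sirt2 loss and MET/CAT asks whether the liver's response to the MET/CAT oncogenes differs between mice with and without hepatocyte Sirt2. For each gene it is the MET/CAT minus GFP difference in knockout (KO) livers minus the same difference in wild-type (WT) livers, on log2(value + 1), where a value is a normalized read count. A gene entered when 3 or more of the 12 libraries reached a value of 10, and 13871 of the 47263 genes in the table did. All 12 libraries entered, 3 in each of 4 groups. The members are thus genes as measured, not genes chosen for an effect, and the description below sorts them by the group that stood apart.

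Whole livers were sequenced as bulk RNA 8 weeks after plasmids were injected hydrodynamically into the tail vein of mice 6 to 8 weeks old. WT GFP and KO GFP are titled as livers given GFP, and WT MET/CAT and KO MET/CAT as livers given MET and beta-catenin. The MET/CAT mix held the transposon plasmids pT3-EF1a-c-MET and pT3-EF1a-DN90-beta-catenin, each driven by the EF1a promoter, with the sleeping beauty transposase plasmid HSB2. The genotype is labelled WT or Sirt2 liver KO, and the series' design text calls the knockout hepatocyte-specific. The Cre line, the sex, the makeup of the GFP injection and whether each library is a different mouse go unstated in the sources used here, so p-values measure the spread between libraries, part of which may be technical. The treatment field of the labels follows genotype and goes against the titles in all libraries titled KO GFP or WT MET/CAT, so the groups rest on the titles. The labels name no batch.

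SIRT2 is an NAD-dependent deacetylase found mainly in the cytoplasm, where tubulin and metabolic enzymes are among its substrates. MET is the receptor tyrosine kinase for hepatocyte growth factor and signals through ERK and AKT. Beta-catenin is the transcriptional effector of Wnt signalling and sets the gene expression of hepatocytes around the central vein. Its truncated form lacks the N-terminal sites that mark it for degradation. An interaction is positive when WT GFP or KO MET/CAT lies high, or KO GFP or WT MET/CAT lies low, and it is negative in the mirror cases, so the same number can come from any 1 of the 4 groups.

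Sirt2 (chr7:28766735-28788661, GRCm38), the targeted gene, was checked first. It was at 824, 924 and 726 normalized reads in WT GFP livers, 233, 183 and 126 in KO GFP, 1068, 943 and 908 in WT MET/CAT and 248, 234 and 201 in KO MET/CAT. Every KO library lay below every WT library within each plasmid. The interaction of Sirt2 was 0.13 (SE 0.32, adjusted p = 0.863), with KO minus WT differences of -2.22 (SE 0.23) in GFP livers and -2.09 (SE 0.23) in MET/CAT livers, and it was -0.10 without KO GFP replicate 3. Glul, the glutamine synthetase of pericentral hepatocytes and a beta-catenin target, was at 16514 to 22828 normalized reads in WT GFP, 17955 to 21664 in KO GFP, 36972 to 63360.1 in WT MET/CAT and 38359.7 to 85906 in KO MET/CAT. All 6 libraries titled MET/CAT lay above all 6 titled GFP, and the interaction of Glul was 0.18 (SE 0.43, adjusted p = 0.863). Its MET/CAT minus GFP difference was 1.45 (SE 0.30) in WT and 1.63 (SE 0.30) in KO. Axin2, a Wnt feedback inhibitor, was at 32.9 to 73.6 normalized reads in WT GFP, 50.9 to 84.3 in KO GFP, 159 to 202 in WT MET/CAT and 84.3 to 172 in KO MET/CAT, where the lowest MET/CAT library, KO MET/CAT replicate 1, met the highest GFP library, KO GFP replicate 1. Its interaction was -0.98 (SE 0.52, adjusted p = 0.369), and -0.63 without WT GFP replicate 2. Lgr5, the R-spondin receptor, was at 51.0 to 110.0 normalized reads in WT GFP, 30.1 to 70.5 in KO GFP, 81.2 to 86.5 in WT MET/CAT and 73.2 to 104 in KO MET/CAT and gave 0.65 (SE 0.53, adjusted p = 0.554), with 0.30 without WT GFP replicate 3, 0.40 without KO GFP replicate 1 and 1.001 without KO GFP replicate 3. Leaving out 1 library moved Sirt2 between -0.10 and 0.34 and Glul between -0.075 and 0.51.

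The mapped Met and Ctnnb1 genes, which encode the endogenous receptor and beta-catenin, overlapped between GFP and MET/CAT livers. Met was at 777, 745 and 836 normalized reads in WT GFP livers, 1122, 959 and 1673 in KO GFP, 706, 959.6 and 626 in WT MET/CAT and 814, 583 and 776 in KO MET/CAT. The KO GFP libraries were at the high end, but KO GFP replicate 2 lay just below WT MET/CAT replicate 2. The interaction of Met was -0.70 (SE 0.33, adjusted p = 0.325), and it was -0.47 without KO GFP replicate 3 and -0.43 once each library's trend with transcript length was removed. Ctnnb1 was at 1044 to 2210.4 normalized reads in WT GFP, 1727 to 2955 in KO GFP, 1217 to 2341 in WT MET/CAT and 1125 to 2187 in KO MET/CAT, all 4 groups overlapped, and its interaction was -0.73 (SE 0.47, adjusted p = 0.447), or -0.46 without WT GFP replicate 2. How far plasmid transcripts map to these genes was not tested.

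No gene passed. Limma called 0 of 13871 genes (0% of the genes tested) at a Benjamini-Hochberg adjusted p under 0.05, and the lowest adjusted p was 0.190. EdgeR on the recovered reads also called 0 genes, whereas DESeq2 called 155, of which 73 had a positive and 82 a negative interaction. With library quality weights limma called 1374, but these weights were 7.25 for WT GFP replicate 1 and 6.06 for KO GFP replicate 1, against 0.24 to 1.31 elsewhere. Of the 22 genes that the naming rule takes for a group standing apart, DESeq2 called 18, edgeR 0 and weighted limma 21; they were taken for low p in these same libraries, so this is no separate support. Precision was limited: the median standard error of an interaction was 0.47 and the median half-width of its 95% interval was 1.004, so a gene whose plasmid response differed by a factor of 2 between genotypes (1 on the log2 scale) lay near the edge of a typical interval. A call missed here is therefore not evidence that a response was alike in both genotypes.

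At an unadjusted p under 0.05 there were 2153 genes (15.5% of those tested), 1293 with a positive interaction (9.32%) and 860 with a negative one (6.2%). Their median size was 1.24 on the log2 scale. These genes are used below only to describe the ranking. Over all genes the median interaction was 0.04, and 52.5% of genes were positive. In 96.98% of the 2153 genes the KO minus WT difference had opposite signs in GFP and in MET/CAT livers, against 57.5% of all genes tested. The MET/CAT minus GFP difference had opposite signs in WT and KO livers in 89.7% of them, against 50.1% of all genes. By group means, the knockout in the low-p genes thus mostly lay on opposite sides of wild type under the 2 plasmids. Both shares were read from the same values as the interaction and are descriptions. Taking genes for a large interaction by itself favours opposite signs, so the shares over all genes are no like comparison. The share of positive genes among those with low p depended on the scaling: it was 60.1% here, 51.3% after quantile normalization, 47.9% in edgeR and 49.6% in DESeq2.

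**Figure D1:**
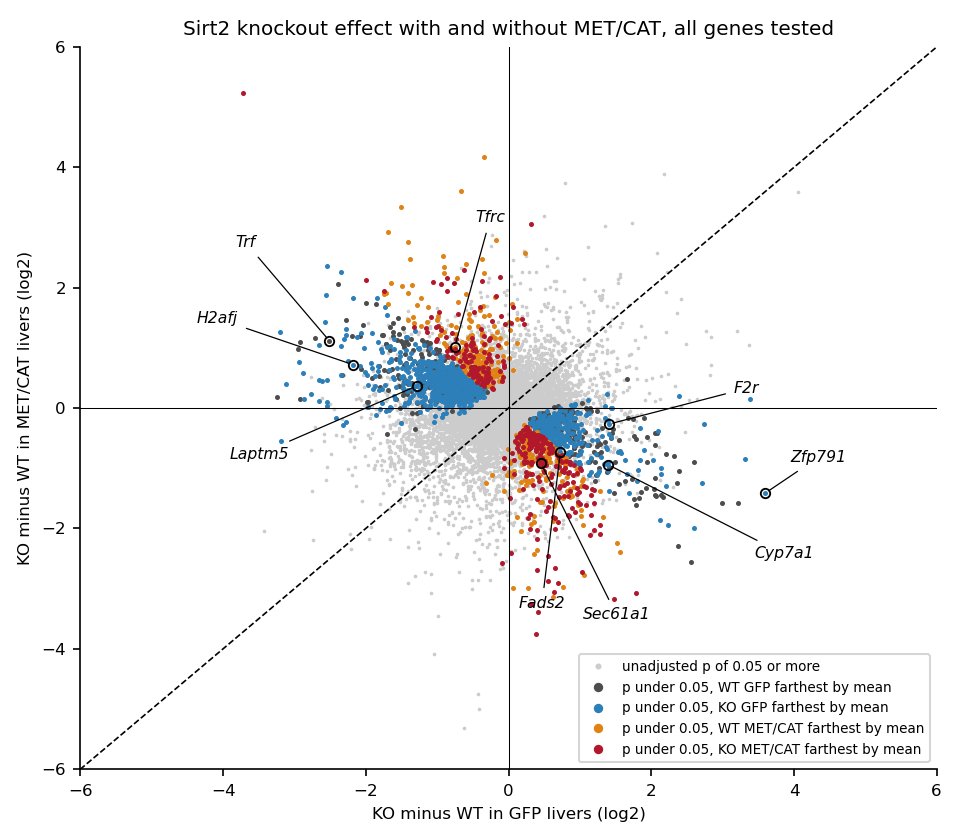
KO minus WT difference in GFP livers (horizontal) and in MET/CAT livers (vertical), both on log2(value + 1), for the 13871 genes tested. Each point is a gene, the dashed line marks equal differences, and the vertical distance above or below it is the interaction. The 2153 genes with an unadjusted p under 0.05 are coloured by the group whose mean lies farthest from the other 3, and most lie in the upper left and lower right, where the sign of the knockout difference turns; rings mark 9 genes described in the text.

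KO GFP replicate 3 touched many of these values. Its score on principal component 1, which held 21.96% of the variance, was -88.95, and the other 11 libraries scored -33.2 to 52.8. Its deviation from the mean of all libraries also went with transcript length more than in any other library (Spearman rho 0.435 over genes, a description only). Across the 13816 genes with a known length, which share the same libraries, the interaction was lower for longer transcripts (rho -0.339, and -0.239 without that library). Without it 1374 genes had an unadjusted p under 0.05, but 1345 did without WT GFP replicate 2 and 1398 without KO MET/CAT replicate 2, so such a drop was not particular to it. With each library's length trend removed 1990 did. Transferrin (Trf) and Ddt were called without it (Ddt is named because it was called there, after its value was seen). Liver genes with a sex bias also set it apart from its group. Female-biased genes lay 1.61 above the mean of all libraries (mean log2 deviation) in KO GFP replicate 3 and at -1.56 and -1.78 in the other KO GFP libraries. In KO MET/CAT they were at 0.82, -1.91 and 0.19. Summed major urinary protein genes, male-biased in mouse liver, were at 24917 normalized reads in KO GFP replicate 3 against 223027 and 221717 in its group. Of 18 female-biased genes 1 had low p, as did 15.5% of all genes, and their median interaction was -0.24. Leaving this library out gave 6, all positive, and a median of 0.92, where 9.91% of all genes had low p. Correcting for length on top of that left 2, each positive, and their median was 0.80, where the share among all genes was 9.42%. The count of 6 thus depended on the setting. The part that sex, RNA quality or library preparation has in these results was not tested. Recovered library sizes ran from 18208879 to 24352961 reads.

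Which group stood apart was read gene by gene, by asking whether the 3 libraries of 1 group all lay above or all lay below the other 9. This held for 1445 genes (10.4% of those tested), 42 of them in 2 groups. KO GFP had the most such genes, with 371 lower (2.67%) and 297 higher (2.14%). WT GFP was higher in 197 genes (1.42%) and lower in 123 (0.887%). WT MET/CAT was higher in 169 (1.22%) and lower in 126 (0.908%). KO MET/CAT was higher in 121 (0.872%) and lower in 83 (0.598%). Of the 2153 genes with low p, 491 had a group apart, and in the other 1662 no group had all 3 libraries beyond the other 9. By group means, KO GFP lay farthest in 963 of the 2153 genes (44.7%), against 36.1% of all genes tested. WT GFP did in 488 (22.7%, against 23.0% of all genes). WT MET/CAT did in 366 (17.0%, against 22.2%) and KO MET/CAT in 336 (15.6%, against 18.7%). This order rests on single libraries: without KO GFP replicate 3 the counts were 349 for KO GFP, 441 for WT MET/CAT, 296 for WT GFP and 288 for KO MET/CAT, and without WT MET/CAT replicate 1 WT MET/CAT (896) exceeded KO GFP (867). Scaling the libraries to equal totals changed the KO GFP counts to 661 higher and 133 lower and the WT MET/CAT counts to 63 higher and 291 lower, so the balance of higher and lower genes in these 2 groups depends on the scaling.

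**Figure D2:**
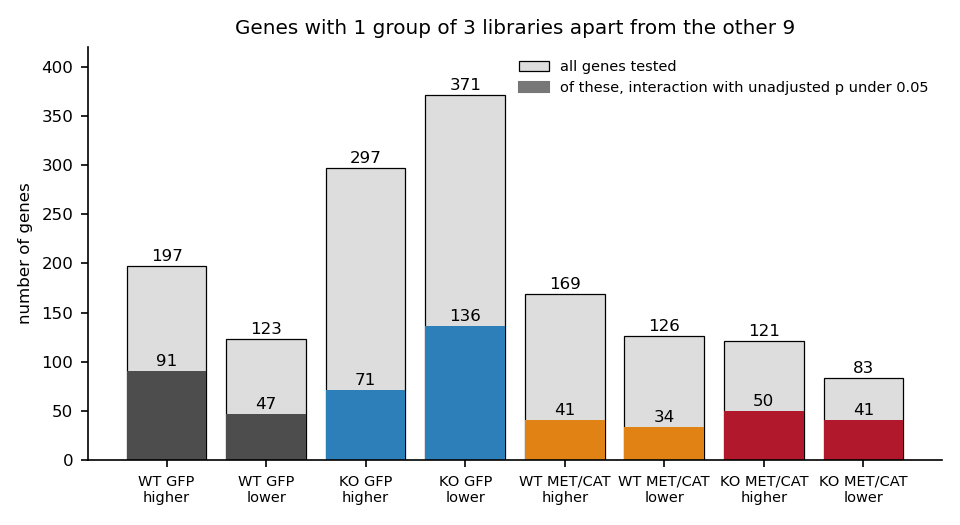
Number of genes in which the 3 libraries of the named group all lay above (higher) or all below (lower) the other 9; grey bars count all genes tested and coloured bars those that also had an unadjusted interaction p under 0.05. KO GFP lower (371 genes) and KO GFP higher (297 genes) are the tallest bars, and KO MET/CAT lower (83 genes) is the shortest.

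Genes standing apart in WT GFP livers come first, since in them the liver with neither Sirt2 loss nor MET/CAT lay apart from the other 3 groups. Trf (chr9:103204001-103230444), the iron carrier that hepatocytes secrete, was at 4698, 7283 and 5232 normalized reads in WT GFP livers, 1138, 2149 and 391 in KO GFP, 1458, 1144 and 994 in WT MET/CAT and 2389, 2976 and 2402 in KO MET/CAT. The lowest WT GFP value lay above the highest value elsewhere, that of KO MET/CAT replicate 2. The knockout difference in Trf was -2.51 (SE 0.44) in GFP livers and 1.12 (SE 0.44) in MET/CAT livers, and the interaction was 3.63 (SE 0.62, 95% interval 2.31 to 4.96, adjusted p = 0.190). Without KO GFP replicate 3 it was 2.97, with an adjusted p of 0.034 in the same limma fit. H2afj, a histone H2A variant, was at 764 to 1424 normalized reads in WT GFP, 102 to 464 in KO GFP, 314 to 493 in WT MET/CAT and 516 to 723 in KO MET/CAT, and its interaction was 2.90 (SE 0.60, adjusted p = 0.226).

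In the opposite direction, WT GFP was lowest for H6pd, Lrrc59 and Tmed7. H6pd (chr4:149979475-150009023), the hexose-6-phosphate dehydrogenase of the endoplasmic reticulum, was at 3858, 4504 and 3452 normalized reads in WT GFP livers, 4763, 4959 and 7010.4 in KO GFP, 7641, 8537 and 8775 in WT MET/CAT and 5043, 4643 and 5818 in KO MET/CAT. WT GFP lay below and WT MET/CAT above all other libraries, and KO livers were intermediate under both plasmids. The MET/CAT minus GFP difference in H6pd was 1.08 (SE 0.19) in WT and -0.09 (SE 0.19) in KO, and the interaction was -1.18 (SE 0.27, 95% interval -1.76 to -0.59, adjusted p = 0.265). Lrrc59, a ribosome-binding protein of the same membrane, was at 388 to 522 normalized reads in WT GFP, 567 to 1060.4 in KO GFP, 801 to 1688 in WT MET/CAT and 582 to 742 in KO MET/CAT and gave -1.41 (SE 0.41, adjusted p = 0.265). Tmed7, a cargo receptor of early secretory vesicles, was at 996 to 1181 normalized reads in WT GFP, 1481 to 2579 in KO GFP, 1414 to 2071 in WT MET/CAT and 1210.4 to 1505 in KO MET/CAT and gave -1.07 (SE 0.32, adjusted p = 0.265). The other 3 groups overlapped for Tmed7.

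KO GFP livers were highest for Zfp791 (chr8:85108553-85123095), a zinc finger gene. It was at 17.95, 5.67 and 8.66 normalized reads in WT GFP livers, 129, 145 and 113 in KO GFP, 31.9, 52.7 and 87.8 in WT MET/CAT and 9.63, 14.6 and 48.8 in KO MET/CAT. The KO GFP values lay above all 9 others, and the WT GFP values were near the level that a few reads give, where 3 reads are worth 2.26 to 3.61 normalized reads. The interaction was -5.01 (SE 0.82, 95% interval -6.77 to -3.25, adjusted p = 0.190), the largest in size of the 22 genes taken for a group standing apart. Reads of zinc finger genes can be shared with paralogs. F2r, the thrombin receptor PAR1, was at 82.8, 95.2 and 94.4 normalized reads in WT GFP livers, 304, 226 and 204 in KO GFP, 136, 152 and 142 in WT MET/CAT and 135, 91.0 and 136 in KO MET/CAT. Its knockout difference was 1.40 (SE 0.25) in GFP livers and -0.27 (SE 0.25) in MET/CAT livers, and the interaction was -1.67 (SE 0.35, adjusted p = 0.226). Cyp7a1 (chr4:6265612-6275633), the rate-limiting enzyme of bile acid synthesis, was at 1268, 1142 and 2135 normalized reads in WT GFP livers, 2642, 2604 and 8181 in KO GFP, 758, 1408 and 1273 in WT MET/CAT and 513, 783 and 477 in KO MET/CAT. KO GFP lay above and KO MET/CAT at the low end of the range, with 1 overlap between KO MET/CAT replicate 2 and WT MET/CAT replicate 1. The interaction of Cyp7a1 was -2.34 (SE 0.58, 95% interval -3.58 to -1.10, adjusted p = 0.265), and -1.79 without KO GFP replicate 3, which had the highest value.

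KO GFP livers were lowest for Laptm5 and Nnmt. Laptm5 (chr4:130913125-130936141), a lysosomal membrane protein of blood cells and macrophages, was at 519, 520.1 and 493 normalized reads in WT GFP livers, 224, 246 and 164 in KO GFP, 475, 510.4 and 385 in WT MET/CAT and 756, 556 and 477 in KO MET/CAT. All KO GFP values were below 385, the lowest value elsewhere, and the interaction was 1.66 (SE 0.32, 95% interval 0.97 to 2.34, adjusted p = 0.190). Nnmt (chr9:48591877-48605153), which methylates nicotinamide and so takes it out of the pool for NAD synthesis, was at 5566, 8298 and 3187 normalized reads in WT GFP livers, 2582, 2144 and 1993 in KO GFP, 4539, 3260.5 and 5849 in WT MET/CAT and 7369.6, 7928 and 7421 in KO MET/CAT. The MET/CAT minus GFP difference in Nnmt was -0.26 (SE 0.30) in WT, where the 2 groups overlapped, and 1.76 (SE 0.30) in KO. The interaction of Nnmt was 2.02 (SE 0.42, 95% interval 1.12 to 2.92, adjusted p = 0.226).

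WT MET/CAT livers were highest for Sec61a1 and Ddx54, besides H6pd. Sec61a1 (chr6:88503579-88518905), the channel through which nascent proteins enter the endoplasmic reticulum, was at 957, 939 and 1199.6 normalized reads in WT GFP livers, 1363, 1325 and 1536 in KO GFP, 2205, 1907 and 2487 in WT MET/CAT and 1375, 977 and 1159 in KO MET/CAT. Its MET/CAT minus GFP difference was 1.09 (SE 0.18) in WT and -0.28 (SE 0.18) in KO, and the interaction was -1.37 (SE 0.26, 95% interval -1.93 to -0.81, adjusted p = 0.190). Ddx54, an RNA helicase of the nucleolus, was at 366 to 426 normalized reads in WT GFP, 454 to 673 in KO GFP, 711 to 797 in WT MET/CAT and 274 to 464 in KO MET/CAT and gave -1.40 (SE 0.32, adjusted p = 0.265). WT MET/CAT livers were lowest for Tfrc (chr16:32608920-32632794), the transferrin receptor, which was at 640.2, 482 and 337 normalized reads in WT GFP livers, 268, 309 and 259 in KO GFP, 159, 152 and 210.1 in WT MET/CAT and 338, 539.8 and 231 in KO MET/CAT. The interaction of Tfrc was 1.77 (SE 0.43, 95% interval 0.84 to 2.70, adjusted p = 0.265). Klf16, a zinc finger repressor, was at 202 to 269 normalized reads in WT GFP, 122 to 226 in KO GFP, 54.5 to 106 in WT MET/CAT and 129.5 to 161 in KO MET/CAT and gave 1.48 (SE 0.42, adjusted p = 0.265). Prkra, an activator of the kinase PKR, was at 332 to 402 normalized reads in WT GFP, 313 to 378 in KO GFP, 166 to 258 in WT MET/CAT and 331 to 372 in KO MET/CAT and gave 0.91 (SE 0.29, adjusted p = 0.265). KO MET/CAT overlapped both GFP groups for Tfrc and Prkra but only KO GFP for Klf16, whereas WT MET/CAT did not reach any other library.

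KO MET/CAT livers were highest for Ncf1, Crip2 and Smtn. Ncf1 (chr5:134220053-134229625), the p47phox subunit of the phagocyte NADPH oxidase, was at 79.8, 114 and 61.5 normalized reads in WT GFP livers, 42.2, 41.3 and 40.7 in KO GFP, 79.7, 125 and 94.5 in WT MET/CAT and 230.0, 166 and 127 in KO MET/CAT. Crip2, a LIM domain protein of vessels and heart, was at 1349, 931 and 1794 normalized reads in WT GFP livers, 757, 914 and 386 in KO GFP, 2053, 1236 and 2213 in WT MET/CAT and 2761, 3686 and 2648 in KO MET/CAT. In both genes KO GFP was lowest and KO MET/CAT highest without overlap, so the plasmid difference was larger in KO livers: it was 0.25 (SE 0.32) in WT and 2.01 (SE 0.32) in KO for Ncf1 and 0.44 (SE 0.33) in WT and 2.22 (SE 0.33) in KO for Crip2. The interactions were 1.76 (SE 0.45, adjusted p = 0.265) for Ncf1 and 1.78 (SE 0.47, adjusted p = 0.265) for Crip2. Smtn, a smooth muscle cytoskeletal protein, was at 92.7 to 135 normalized reads in WT GFP, 50.6 to 84.5 in KO GFP, 72.3 to 101 in WT MET/CAT and 137 to 140.2 in KO MET/CAT and gave 1.47 (SE 0.39, adjusted p = 0.265), though KO MET/CAT exceeded the highest WT GFP library by little.

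KO MET/CAT livers were lowest for Fads2 (chr19:10062765-10101746), the delta-6 desaturase of polyunsaturated fatty acid synthesis. It was at 4804, 4646 and 4081 normalized reads in WT GFP livers, 6416, 6671 and 9641 in KO GFP, 6519.8, 7135 and 5551 in WT MET/CAT and 3987, 3653 and 3929.6 in KO MET/CAT. KO GFP and WT MET/CAT shared the high range, WT GFP lay between, and the 3 KO MET/CAT values were the lowest and differed little from each other. The knockout difference in Fads2 was 0.73 (SE 0.19) in GFP livers and -0.72 (SE 0.19) in MET/CAT livers, and the interaction was -1.45 (SE 0.27, 95% interval -2.03 to -0.88, adjusted p = 0.190). Proz, a vitamin K-dependent cofactor that limits coagulation, was at 3062 to 3605 normalized reads in WT GFP, 4107 to 7253 in KO GFP, 3632 to 4568 in WT MET/CAT and 2200.1 to 3051 in KO MET/CAT and gave -1.19 (SE 0.32, adjusted p = 0.265). Slc44a3, a choline transporter-like protein, was at 129 to 189 normalized reads in WT GFP, 155 to 287 in KO GFP, 140.1 to 201 in WT MET/CAT and 76.4 to 108 in KO MET/CAT and gave -1.41 (SE 0.40, adjusted p = 0.265).

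**Figure D3:**
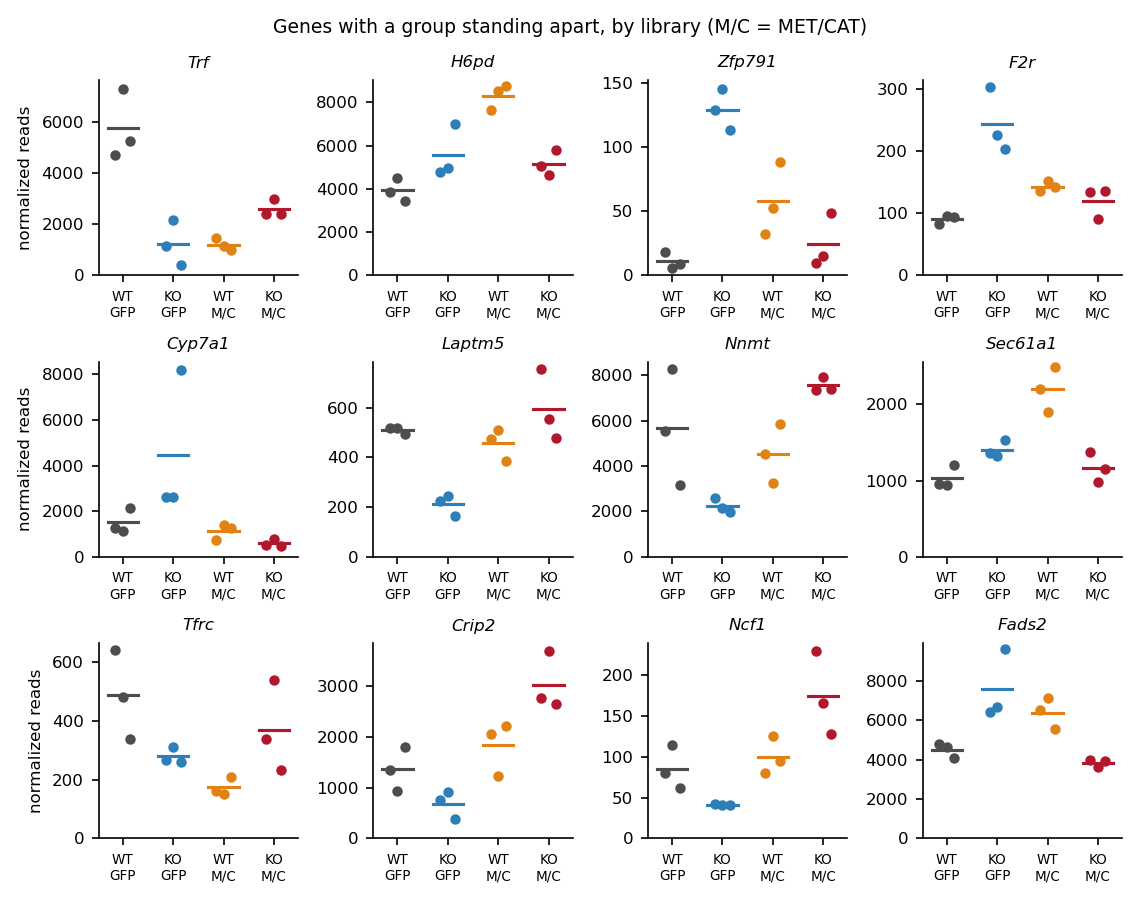
Normalized reads of 12 genes in each of the 12 libraries (points) with the mean of the 3 libraries of a group (line), each panel on its own linear axis from 0. WT GFP is alone at the top for Trf (4698 to 7283), KO GFP alone at the top for Zfp791 (113 to 145), WT MET/CAT alone at the top for Sec61a1 and alone at the bottom for Tfrc, and KO MET/CAT alone at the bottom for Fads2 (3653 to 3987).

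The 250 bases before the RefSeq start site (GRCm38.p6) are shown for 3 of these genes, each from another class, because a motif of a transcription factor family was found in them and they overlap no GENCODE vM21 exon. Tfrc also had such a stretch, with 3 matches to the metal response element, 2 of them overlapping; it is not shown because that short motif is common. Capitals mark the match. It is an E-box (CACGTG) at -107 to -102 from the start used for Zfp791 and a D-box (TTANGTAA) at -63 to -56 of H6pd. In Ncf1 it is an interferon-stimulated response element at -82 to -73. Another RefSeq start of Zfp791 has a stretch (chr8:85119692-85119941) that overlaps an exon and held no match to the motifs searched.
Zfp791 (chr8:85123096-85123345, minus strand): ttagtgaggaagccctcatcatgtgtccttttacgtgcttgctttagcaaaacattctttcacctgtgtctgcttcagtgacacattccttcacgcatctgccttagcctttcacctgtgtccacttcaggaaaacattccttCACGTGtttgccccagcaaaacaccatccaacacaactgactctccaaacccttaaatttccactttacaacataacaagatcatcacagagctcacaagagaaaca
H6pd (chr4:150003237-150003486, minus strand): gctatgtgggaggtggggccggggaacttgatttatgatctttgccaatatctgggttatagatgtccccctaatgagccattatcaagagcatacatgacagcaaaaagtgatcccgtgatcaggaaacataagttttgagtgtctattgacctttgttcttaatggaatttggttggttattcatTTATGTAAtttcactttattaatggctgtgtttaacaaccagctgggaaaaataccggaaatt
Ncf1 (chr5:134229626-134229875, minus strand): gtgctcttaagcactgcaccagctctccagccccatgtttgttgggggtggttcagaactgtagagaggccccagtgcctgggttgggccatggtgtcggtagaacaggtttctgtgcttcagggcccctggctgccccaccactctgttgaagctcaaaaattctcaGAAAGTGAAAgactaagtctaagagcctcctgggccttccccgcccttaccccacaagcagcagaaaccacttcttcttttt
The RefSeq start used for H6pd lies inside the longer gene that GENCODE annotates. A row was found for 14 of the 22 genes taken for a group standing apart. Searched on both strands were those 3 motifs, the cAMP response element TGACGTCA, the AP-1 site TGANTCA, the ROR element NNTAGGTCA, the metal response element TGCNCNC and the heat shock element, and none of the 3 stretches held a match to another of them. Of the 32851 promoters in the table, 6.02% held the E-box, 2.06% the D-box and 2.98% the interferon element in the same window. Of the others, 1.55% held the cAMP response element, 6.75% the AP-1 site, 2.21% the ROR element, 44.4% the metal response element and 0.466% the heat shock element. A match is a run of letters and not a site that was tested here.

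Gene groups were read from 45 lists of pathways and cell type markers, each against the 15.5% of all genes with an unadjusted p under 0.05 and their median interaction of 0.04. No member of any list was called. That share of all genes was 9.91% without KO GFP replicate 3, 14.4% with the length trend removed and 9.42% with both. The lists taken up below are those with a share of at least 31.0% and those on Sirt2, MET and beta-catenin. The other 34 lists had shares of 0% to 30% and medians of -1.09 to 1.35.

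Markers of macrophages, among them Kupffer cells, the resident macrophages of the liver, had the highest median of the lists taken up. Of 26 markers, 13 had an unadjusted p under 0.05, all with a positive interaction, 24 were positive, and the median was 1.51. The median knockout difference was -1.33 in GFP livers and 0.04 in MET/CAT livers, and KO GFP lay lowest without overlap for 9 markers, as it did for 2.67% of all genes tested. C1qa, a subunit of complement C1q, was at 1621, 2374 and 2053 normalized reads in WT GFP livers, 934, 948 and 178 in KO GFP, 1889, 1163 and 1082 in WT MET/CAT and 1826, 1771 and 2203 in KO MET/CAT. Its interaction was 2.41 (SE 0.68, adjusted p = 0.265), and 1.61 without KO GFP replicate 3. Aif1, a macrophage actin-binding protein, was at 183 to 271 normalized reads in WT GFP, 54.2 to 101 in KO GFP, 91.2 to 133 in WT MET/CAT and 87.9 to 199 in KO MET/CAT and gave 1.80 (SE 0.49, adjusted p = 0.265). Clec1b, the C-type lectin CLEC-2, was at 198 to 295 normalized reads in WT GFP, 48.8 to 119 in KO GFP, 64.3 to 206 in WT MET/CAT and 143 to 176 in KO MET/CAT and gave 1.90 (SE 0.57, adjusted p = 0.265). Summed over the 26 markers, none of them at 0 in any library, levels were 14883 to 18616 normalized reads in WT GFP, 6187 to 11204 in KO GFP, 13370 to 16970 in WT MET/CAT and 12599 to 21568 in KO MET/CAT. The median was 0.88 without KO GFP replicate 3 (11 markers with low p), 0.91 with the length trend removed (11) and 0.67 with both (8). In GFP livers the median knockout difference was -1.11 for T, NK and B cell markers, -0.72 for neutrophil markers and -0.77 for erythroid genes. It was -0.28 for endothelial, -0.36 for cholangiocyte and -0.17 for hepatocyte markers, and 0.09 for stellate cell and matrix genes. Whole livers were measured, and so fewer macrophages and less RNA per macrophage cannot be told apart.

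KO GFP was also the group farthest by mean for 11 of 17 genes of antigen presentation, as it was for 36.1% of all genes tested. Of the 17, 7 had an unadjusted p under 0.05, all positive, and the median was 0.55 (0.37 without KO GFP replicate 3). KO GFP lay lowest without overlap for 5, against 2.67% of all genes. Cd74, the invariant chain of MHC class II, was at 1308, 1565 and 1505 normalized reads in WT GFP livers, 842, 783 and 338 in KO GFP, 1425, 1489 and 1425 in WT MET/CAT and 2022, 1320.3 and 1767 in KO MET/CAT. Its interaction was 1.47 (SE 0.41, adjusted p = 0.265), and those of the class II chains H2-Aa and H2-Ab1 were 1.33 (SE 0.41, adjusted p = 0.265) and 1.21 (SE 0.39, adjusted p = 0.265). Psmb8, an immunoproteasome subunit, instead had WT GFP highest, at 969 to 1554 normalized reads in WT GFP, 321 to 645 in KO GFP, 440.3 to 797 in WT MET/CAT and 490.4 to 715 in KO MET/CAT, and gave 1.26 (SE 0.42, adjusted p = 0.265). The summed level of T, NK and B cell markers, a list that also holds Cd74, was 1899 to 2267 normalized reads in WT GFP, 509 to 1312 in KO GFP, 1835 to 2030 in WT MET/CAT and 1822 to 2607 in KO MET/CAT. Its part in these genes was not tested.

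Acute phase genes, which hepatocytes express under inflammatory cytokines, had 9 of 27 members with an unadjusted p under 0.05, 7 positive and 2 negative, but a median of 0.08, or -0.03 with equal library totals. Without KO GFP replicate 3, low p was left in 4 positive and 1 negative members, against 9.91% of all genes. With the length trend removed as well, it was left in 3 positive and 1 negative, against 9.42% of all genes. Orm3, an orosomucoid, was at 206, 733 and 151 normalized reads in WT GFP livers, 86.6, 50.9 and 38.0 in KO GFP, 291, 98.1 and 231 in WT MET/CAT and 472, 369 and 325 in KO MET/CAT and gave 3.37 (SE 0.75, adjusted p = 0.265). The KO GFP libraries were the lowest and KO MET/CAT the highest but for WT GFP replicate 2. Saa1, a serum amyloid, was at 447, 2230.2 and 714 normalized reads in WT GFP livers, 343, 271 and 81.4 in KO GFP, 1471, 20517 and 30732 in WT MET/CAT and 34133, 24770.4 and 49398 in KO MET/CAT. Its interaction was 4.01 (SE 1.30, adjusted p = 0.265), with a MET/CAT minus GFP difference of 3.45 (SE 0.92) in WT and 7.46 (SE 0.92) in KO, and WT MET/CAT replicate 1 lay far below the other MET/CAT livers. The near-identical Saa2 gave 4.44 (SE 1.55, adjusted p = 0.265). Without that library Saa1 gave 2.64 and Saa2 2.74, and reads may be split between these genes. Ceruloplasmin (Cp) went the other way, at 13376 to 14644 normalized reads in WT GFP, 14794 to 27459.5 in KO GFP, 18742 to 28493 in WT MET/CAT and 13262 to 18532 in KO MET/CAT, with -1.06 (SE 0.36, adjusted p = 0.265). Summed neutrophil markers were at 255 to 887 normalized reads in WT GFP, 170 to 378 in KO GFP, 1084 to 12405 in WT MET/CAT and 2325 to 11184 in KO MET/CAT, and their part in this was not tested.

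Stellate cell and matrix genes had no common direction. Of 16 members, 2 had a positive and 3 a negative interaction at an unadjusted p under 0.05, and the median was -0.06. Timp1, an inhibitor of matrix proteases, was at 13.96, 26.1 and 10.4 normalized reads in WT GFP livers, 5.27, 4.80 and 2.71 in KO GFP, 41.9, 116 and 35.6 in WT MET/CAT and 169, 79.5 and 108 in KO MET/CAT. Its interaction was 2.71 (SE 0.74, adjusted p = 0.265), and KO GFP lay lowest, near the level of 3 reads. Lrat, which stores retinol in stellate cells, was at 114 to 319.6 normalized reads in WT GFP, 85.5 to 158 in KO GFP, 33.4 to 81.7 in WT MET/CAT and 67.4 to 160.3 in KO MET/CAT and gave 1.59 (SE 0.63, adjusted p = 0.281). The collagen genes Col3a1 and Col5a1, named for their low p, had negative values, with -1.21 (SE 0.38, adjusted p = 0.265) for Col3a1 and -1.19 (SE 0.39, adjusted p = 0.265) for Col5a1. Col3a1 was at 804 to 1818 normalized reads in WT GFP, 1996 to 2917 in KO GFP, 1856 to 2365 in WT MET/CAT and 1331 to 1895 in KO MET/CAT, with KO GFP overlapping WT MET/CAT.

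The 13 protein-coding and 2 ribosomal RNA genes of the mitochondrial genome were the list with the lowest median of those taken up. The median was -0.84, 5 of 15 had an unadjusted p under 0.05, all negative, and WT MET/CAT lay highest without overlap for 9, against 1.22% of all genes. The cytochrome oxidase subunit mt-Co1 was at 114737, 71569 and 194627 normalized reads in WT GFP livers, 189278, 143336 and 114976 in KO GFP, 203991, 353101 and 299865 in WT MET/CAT and 171021, 92280.5 and 114890.0 in KO MET/CAT. Its interaction was -1.51 (SE 0.57, adjusted p = 0.269), with a plasmid difference of 1.25 (SE 0.40) in WT and -0.26 (SE 0.40) in KO. The complex I subunit mt-Nd4 was at 33942 to 70734 normalized reads in WT GFP, 48820.1 to 65381 in KO GFP, 88135 to 134723 in WT MET/CAT and 38496 to 64922 in KO MET/CAT and gave -1.40 (SE 0.44, adjusted p = 0.265). The subunits mt-Co2 and mt-Co3 gave -0.94 (SE 0.33, adjusted p = 0.265) and -0.88 (SE 0.31, adjusted p = 0.265). The median was -0.82 without KO GFP replicate 3 and -1.43 with the length trend removed, where 11 members had low p. Nuclear copies of mitochondrial sequence may take part of these reads.

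Nuclear genes of the respiratory chain went in the opposite direction to the mitochondrial ones. Of 49, 26 had a positive and 1 a negative interaction at an unadjusted p under 0.05, with a median of 0.89. The median knockout difference was -0.57 in GFP livers and 0.35 in MET/CAT livers. Cox6b1, a subunit of complex IV, was at 11961, 16603 and 8269 normalized reads in WT GFP livers, 7964, 9857 and 2333 in KO GFP, 8522, 4232 and 6212 in WT MET/CAT and 9502, 15710.5 and 10453 in KO MET/CAT. The groups overlapped, KO GFP replicate 3 was the lowest library, and the interaction was 1.99 (SE 0.65, adjusted p = 0.265), or 1.35 without that library. The complex I subunits Ndufb3, Ndufa3 and Ndufb10 gave 1.18 (SE 0.38, adjusted p = 0.265), 1.70 (SE 0.55, adjusted p = 0.265) and 1.40 (SE 0.46, adjusted p = 0.265).

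Ribosomal protein genes resembled them, with 24 of 47 at an unadjusted p under 0.05, all positive, and a median of 0.89. Rpl35 was at 1302, 2173 and 1484 normalized reads in WT GFP livers, 425, 753 and 242 in KO GFP, 1007, 562 and 523 in WT MET/CAT and 1042, 849.5 and 950.0 in KO MET/CAT. WT GFP lay above all others, and the interaction was 2.42 (SE 0.51, adjusted p = 0.226). Rplp2, Rps29 and Rpl13a gave 1.60 (SE 0.42, adjusted p = 0.265), 1.93 (SE 0.54, adjusted p = 0.265) and 1.54 (SE 0.46, adjusted p = 0.265), each with overlapping groups. Ribosomal protein genes have many processed pseudogenes that can share their reads. Both lists hold short transcripts, with a median exon length of 1829.5 bases for the respiratory chain and 1840.0 for the ribosomal genes, against 4259 over all genes tested. Without KO GFP replicate 3 their medians were 0.59 and 0.64, with 16 and 15 members at low p, and with its absence and the length trend's removal together they were 0.33 and 0.39, with 11 and 11.

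**Figure D4:**
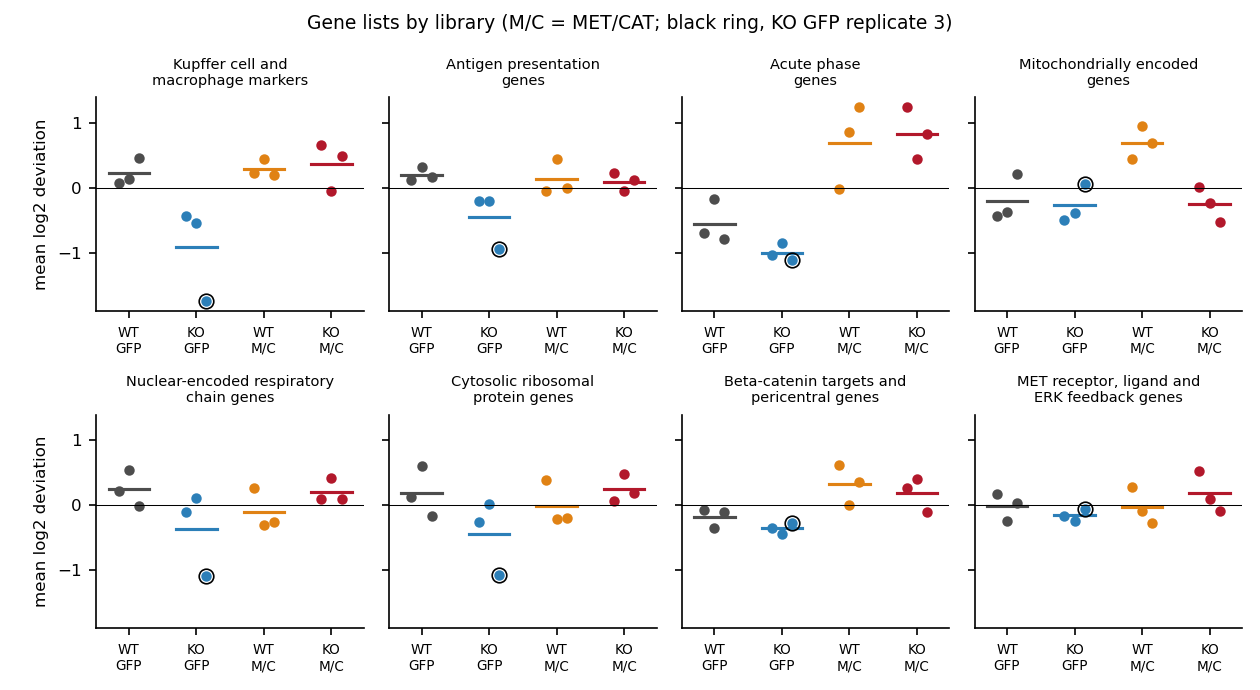
Mean log2 deviation of 8 gene lists in each library from the mean of the 12 libraries (points; lines are group means; the ring marks KO GFP replicate 3). KO GFP lies lowest without overlap for Kupffer cell and macrophage markers, with replicate 3 at -1.74. WT MET/CAT lies highest without overlap for the mitochondrially encoded genes. In the beta-catenin and MET lists, whose median interactions were 0.08 and 0.06, every group overlaps another, though KO GFP has the lowest group mean in both. Most MET/CAT libraries lie above the GFP libraries for the beta-catenin list, but KO MET/CAT replicate 3 (-0.106) is below WT GFP replicate 1 (-0.069).

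The lists closest to the oncogenes had shares of low p near the background with all libraries in. Of 26 beta-catenin targets and pericentral genes, 4 had an unadjusted p under 0.05 (15.4%), 2 in each direction, and the median was 0.08, or -0.20 after quantile normalization and -0.03 with equal library totals. There were 7 of 26 with the length trend removed, and 4 of 26 without KO GFP replicate 3. The median MET/CAT minus GFP difference was 0.32 in WT and 0.69 in KO livers. Rhbg, an ammonia transporter, was at 43.9, 70.3 and 32.9 normalized reads in WT GFP livers, 13.6, 15.4 and 9.04 in KO GFP, 97.7, 16.9 and 40.0 in WT MET/CAT and 123, 76.4 and 30.8 in KO MET/CAT. KO GFP was lowest, and the interaction was 2.53 (SE 0.87, adjusted p = 0.265). Notum, a secreted Wnt inhibitor, was at 569 to 1006 normalized reads in WT GFP, 381 to 647 in KO GFP, 491 to 867 in WT MET/CAT and 742 to 926 in KO MET/CAT and gave 1.09 (SE 0.39, adjusted p = 0.266). Cyclin D1 (Ccnd1) was at 269.7 to 532 normalized reads in WT GFP, 391 to 1067 in KO GFP, 406 to 967 in WT MET/CAT and 276 to 607 in KO MET/CAT and gave -1.60 (SE 0.60, adjusted p = 0.267), and the tight junction gene Cldn2 was at 765 to 1379 normalized reads in WT GFP, 963 to 1116 in KO GFP, 1231 to 2004 in WT MET/CAT and 608 to 1045 in KO MET/CAT and gave -0.91 (SE 0.37, adjusted p = 0.283).

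Of 18 genes of the MET receptor, its ligand and ERK feedback, 3 had an unadjusted p under 0.05, all positive, and the median was 0.06, or -0.05 with equal library totals. There were also 3 of 18 in each of those other settings. Of the 18 interactions 10 were positive and 8 negative, from -1.25 to 3.40, and that of Met was -0.70. Phlda1, induced by ERK signalling, was at 1372, 1305 and 426 normalized reads in WT GFP livers, 342, 289 and 212 in KO GFP, 1089, 359 and 156 in WT MET/CAT and 3805, 1009.6 and 520.1 in KO MET/CAT. The libraries of each MET/CAT group spread widely, KO GFP was the least variable, and the interaction was 3.40 (SE 1.02, adjusted p = 0.265). The transcription factor gene Etv5 was at 73.7 to 125 normalized reads in WT GFP, 16.3 to 61.5 in KO GFP, 54.8 to 66.8 in WT MET/CAT and 68.0 to 93.4 in KO MET/CAT and gave 1.80 (SE 0.59, adjusted p = 0.265). Spint2, an inhibitor of the proteases that activate the MET ligand, was at 4456 to 6804 normalized reads in WT GFP, 3693 to 5249 in KO GFP, 4092 to 5257 in WT MET/CAT and 5605 to 8138 in KO MET/CAT and gave 0.88 (SE 0.31, adjusted p = 0.265).

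Among the 7 sirtuin genes, which encode NAD-dependent deacylases, only Sirt7 had an unadjusted p under 0.05, and the median was 0.15. Sirt7, a nuclear sirtuin, was at 822, 985 and 910.3 normalized reads in WT GFP livers, 772, 703 and 478 in KO GFP, 937, 543 and 659 in WT MET/CAT and 767, 1135 and 1130.5 in KO MET/CAT and gave 1.02 (SE 0.35, adjusted p = 0.265). Sirt6 was at 34.9, 43.1 and 47.6 normalized reads in WT GFP livers, 39.9, 45.1 and 28.0 in KO GFP, 102, 81.2 and 81.2 in WT MET/CAT and 21.7, 33.5 and 58.4 in KO MET/CAT. WT MET/CAT lay above all others, and the interaction was -1.14 (SE 0.54, adjusted p = 0.324). The mitochondrial sirtuins Sirt4 and Sirt5 gave 0.76 (SE 0.58, adjusted p = 0.529) and 0.46 (SE 0.37, adjusted p = 0.549). Sirt4 was at 0.26 and Sirt5 at 0.27 without KO GFP replicate 3, and at 0.46 and 0.22 without WT MET/CAT replicate 3. Of 15 core histone genes 5 were high enough to be tested, and 2 had low p in opposite directions: Hist1h2bc, at 2343 to 3038 normalized reads in WT GFP, 1113 to 1823 in KO GFP, 1963 to 3399 in WT MET/CAT and 2068 to 2588 in KO MET/CAT, gave 0.80 (SE 0.33, adjusted p = 0.288), and Hist2h2be, at 19.9 to 42.4 normalized reads in WT GFP, 29.8 to 48.8 in KO GFP, 39.0 to 55.8 in WT MET/CAT and 18.8 to 37.2 in KO MET/CAT, gave -1.24 (SE 0.58, adjusted p = 0.322). Hist1h4h and Hist1h4i gave 1.03 (SE 0.68, adjusted p = 0.464) and 0.62 (SE 0.61, adjusted p = 0.631), the latter -0.11 with the length trend removed and 0.25 to 1.01 with 1 library left out. They were at 0.63 and 0.39 without KO GFP replicate 3. In that setting Hist1h2bc was at 0.60 and Hist2h2be at -1.04, and neither had low p. With the length trend removed Hist1h2bc was at 0.19 and Hist2h2be at -1.39, and only Hist2h2be had low p. Core histone genes are near-identical copies and may share reads.

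**Figure D5:**
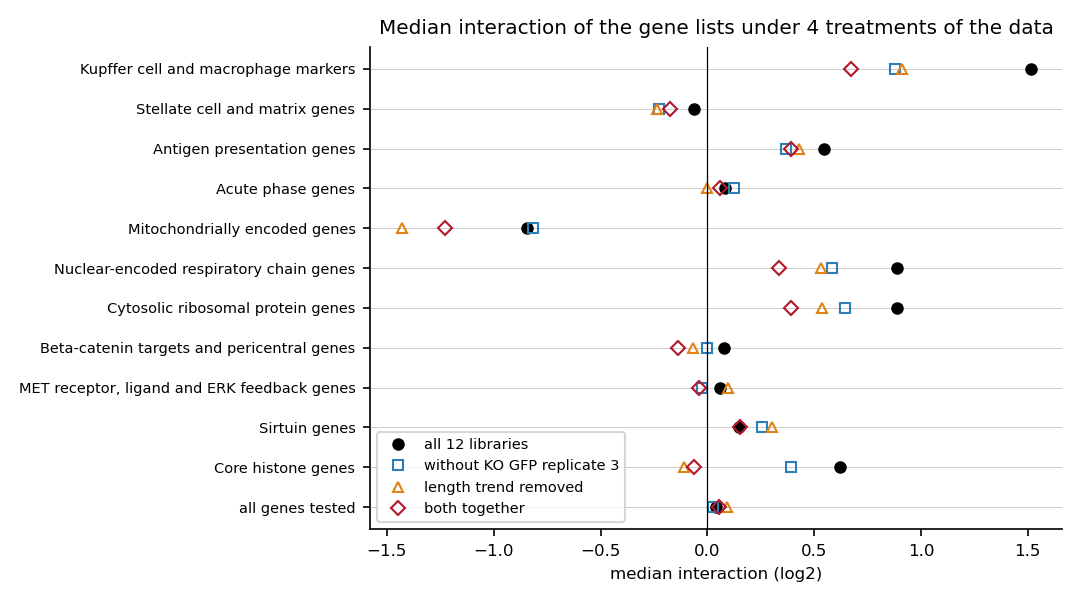
Median interaction (log2) of the 11 lists taken up and of all genes tested, with all 12 libraries, without KO GFP replicate 3, with each library's length trend removed, and with both together. The medians of the Kupffer cell and macrophage, ribosomal and respiratory chain lists stay above 0 but shrink, from 1.51 to 0.67, from 0.89 to 0.39 and from 0.89 to 0.33. That of the mitochondrially encoded genes stays below 0, and that of the core histones turns negative.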

How the data were processed

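RNA of whole mouse liver was sequenced in 12 libraries, and the deposited table holds a signal per gene, gene counts divided by 1 factor per library. The submitters' processing notes name HISAT2 2.0.4, HTSeq 0.11.2 and the build GRCm38. Kit, strandedness and how the factors were set: not given in the sources used here. Reads of overlapping or antisense genes may thus be mixed. Dividing by each library's step (0.753 to 1.20 units per read) gave whole reads for 100% of the values (tolerance 0.01 reads), 18208879 to 24352961 per library. Positions came from GENCODE vM21 and promoters from RefSeq (GRCm38.p6).

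The main test was limma 3.58.1 (R 4.3.3) on log2(value + 1) with the variance allowed to follow the mean, 4 group means and no block, two-sided, with Benjamini-Hochberg adjustment over 13871 genes. Differences on this scale are smaller than true ones for low genes. On the recovered reads edgeR 4.0.16 called 0 genes and DESeq2 1.42.0 called 155. Scripts were tested on simulated data, and figures were drawn with matplotlib 3.10.9. Genes named were Sirt2, Met, Ctnnb1, Glul, Axin2 and Lgr5, any called gene, in each class of a group apart the 3 lowest p (unadjusted p under 0.05, highest group mean 100 or more, no predicted genes), and 4 members per list taken up. For 1 gene that this rule takes, the result is not reported here. A list was taken up with at least 4 tested genes and 2 times the background share of low p, or if it was about Sirt2, MET or beta-catenin. The genes, lists, tests and rules were chosen with earlier results of these data known. Other pseudocounts, filters, scalings, weights, tools, a block, length correction and single libraries left out were tried; 26 date-like names and 2 repeated names were never named.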

Additional observations from a re-analysis of the deposited data

How the results depend on the processing

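Of 1679 interactions of the 70 genes taken by the naming rule under other settings, 1597 kept their direction and stayed on the same side of the threshold, 74 passed it, mostly with library weights or DESeq2, and 8 turned sign in 3 genes: Sirt2 (-0.21 with library weights, -0.10 without KO GFP replicate 3, -0.019 with the length trend removed as well), Glul (-0.073 with quantile normalization, -0.067 without WT MET/CAT replicate 2, -0.075 without KO MET/CAT replicate 2) and Hist1h4i (-0.11 with the length trend removed, -0.061 without KO GFP replicate 3 as well). Leaving out 1 library gave -0.10 to 0.34 for Sirt2, -0.075 to 0.51 for Glul and 0.25 to 1.01 for Hist1h4i. The causes were not tested.

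Calls numbered 1374 with library weights and 155 in DESeq2. They numbered 2 (Etfb and Gm47283) with the replicate block. Same-numbered libraries correlated at -0.195 to 0.280, above 0.1 in 5 of 18 pairs, and 5 of 12 libraries correlated best with their own number. This shows no clear pairing by number, but with so few libraries it cannot tell whether samples were paired. Leaving out 1 library gave 0 to 4 calls: Trf and Ddt without KO GFP replicate 3, Etfb, H2afj and Trf without KO GFP replicate 2, Zfp791 without KO MET/CAT replicate 3, Nab2, Pth1r and Tbxa2r without WT MET/CAT replicate 1, and 4 predicted genes without WT MET/CAT replicate 3. Equal library totals moved the median interaction of all genes from 0.04 to -0.07. With library weights 2318 genes had a positive and 1838 a negative interaction at low p, and WT GFP lay farthest in 960.0 of them, KO GFP in 1705, WT MET/CAT in 895 and KO MET/CAT in 596. Among alternatives chosen after seeing the data, KO GFP replicate 3 left out with the length trend removed gave 2 calls, 771 positive and 530.0 negative genes, WT GFP farthest in 249, KO GFP in 330.0, WT MET/CAT in 436 and KO MET/CAT in 286, and as groups apart KO GFP higher 497 and lower 647, WT MET/CAT higher 291 and lower 332. With equal totals these were 661, 133, 63 and 291.

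Leaving out 1 library gave 797 to 1746 positive and 548 to 1188 negative genes. Groups apart, where 2 libraries stand apart more easily than 3, then ranged from 214 to 531 (WT GFP higher), 130 to 424 (lower), 315 to 785 (KO GFP higher), 395 to 925 (lower), 181 to 720.0 (WT MET/CAT higher), 130 to 471 (lower), 131 to 348 (KO MET/CAT higher) and 89 to 412 (lower). Farthest by mean ranged from 261 to 795 in WT GFP, 349 to 1726 in KO GFP, 239 to 896 in WT MET/CAT and 222 to 580.0 in KO MET/CAT. List medians ranged from 0.88 to 1.80 (Kupffer), -0.23 to 0.12 (stellate), 0.37 to 0.76 (antigen presentation), -0.08 to 0.32 (acute phase), -1.0005 to -0.67 (mitochondrially encoded), 0.59 to 1.17 (respiratory chain), 0.64 to 1.12 (ribosomal), -0.09 to 0.23 (beta-catenin), -0.09 to 0.21 (MET), 0.067 to 0.55 (sirtuin) and 0.25 to 1.01 (histone). The median of the Kupffer cell and macrophage list, called Kupffer for short here, was 0.73 with library weights. With the length trend removed, medians were 0.91 (Kupffer), -0.23 (stellate), -1.43 (mitochondrially encoded) and -0.11 (histone). Without KO GFP replicate 3 as well, they were 0.67 (Kupffer), -1.23 (mitochondrially encoded), 0.33 (respiratory chain), 0.39 (ribosomal) and -0.061 (histone). The beta-catenin median was -0.20 with quantile normalization.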

Other observations

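Of the 34 lists given above only as counts, 4 are described here; they and the genes named from them were picked after their values were seen. Many immediate early genes are transcription factor genes that respond to stimuli within minutes. Of 22 immediate early genes 5 had an unadjusted p under 0.05 (22.7%, against 15.5% of all genes tested). All 5 had a positive interaction, and the median of the list was 0.90. Without KO GFP replicate 3 the count was 3 of 22, against 9.91% of all genes, and the median 0.72. Summed over the list, KO MET/CAT replicates 1 to 3 were at 38469, 13348 and 12619 normalized reads. The sums were 5451 to 7162 in WT GFP, 6384 to 7671 in KO GFP and 7399 to 8821 in WT MET/CAT. KO MET/CAT replicate 1 thus lay far above the others of its group. Its mean log2 deviation was 2.12, against 0.44 and 0.22 in theirs. Btg2, an antiproliferative gene, was at 174 to 240.3 in WT GFP, 102 to 284 in KO GFP, 307 to 590.4 in WT MET/CAT and 689 to 3597 in KO MET/CAT, and its interaction was 1.68 (SE 0.76, adjusted p = 0.313 in limma).

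Genes of the integrated stress response had 6 of 20 members at low p (30%, against 15.5% of all genes), 5 of them positive, with a median of 0.46. Without KO GFP replicate 3 there were 3 of 20, all positive, against 9.91% of all genes, and the median was 0.47. Atf4, its main transcription factor, was highest in WT GFP, at 2675 to 2951 normalized reads, against 664 to 1939 in KO GFP, 1668 to 1967 in WT MET/CAT and 2354 to 2533 in KO MET/CAT. The interaction of Atf4 was 1.55 (SE 0.43, adjusted p = 0.265 in limma). Gadd45a, a stress-induced growth arrest gene, was at 83.2 to 102 in WT GFP, 33.4 to 51.9 in KO GFP, 20.01 to 66.8 in WT MET/CAT and 69.0 to 565 in KO MET/CAT, and its interaction was 3.15 (SE 0.90, adjusted p = 0.265 in limma).

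All 23 mitosis genes had a negative interaction, with a median of -1.09, but 3 of them (13.04%) had low p, against 15.5% of all genes. Of all genes 52.5% were positive. Without KO GFP replicate 3 the median was -0.89 and 1 gene had low p. The list's mean log2 deviation varied widely among libraries of the same group: WT GFP (0.81, -1.29, -0.98), KO GFP (-0.33, 0.77, 1.18), KO MET/CAT (-1.15, 0.95, -0.39). WT MET/CAT varied less (0.15, 0.0043, 0.26), and every group overlapped the others. The 23 genes share these libraries and are not separate results. Top2a, the topoisomerase of dividing cells, was at 12.5 to 89.8 normalized reads in WT GFP, 45.9 to 187 in KO GFP, 61.8 to 81.2 in WT MET/CAT and 15.7 to 85.8 in KO MET/CAT. All groups overlapped, and the interaction was -2.74 (SE 1.01, adjusted p = 0.267 in limma). Of 24 cholesterol synthesis genes 17 were negative, 3 had low p (12.5%), and the median was -0.50. Lss, lanosterol synthase, was at 637 to 2271 in WT GFP, 1383 to 2161 in KO GFP, 1008 to 1849 in WT MET/CAT and 269 to 893 in KO MET/CAT, with an interaction of -1.92 (SE 0.64, adjusted p = 0.265 in limma).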
